A study of Mus musculus with 1019 samples.

Results

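The genes of the cytosolic ribosome were followed in single T cells of the spleen and of visceral adipose tissue (VAT) of mice. Members were chosen by gene symbol alone: Rpl or Rps followed by a number and an optional suffix, together with Rpsa, Rplp0, Rplp1 and Rplp2, without rows marked -ps and without the Rps6k kinases. The rule found 84 of the 23725 rows of the count table, of which 51 encode large-subunit and 33 small-subunit proteins. These were 77 standard members and 7 paralogs whose symbols end in l or l1. Fau, which encodes a ribosomal protein fused to another sequence, falls outside the naming rule and is given with the wider pathway. At least 1 molecule was counted for 83 members, and 79 had 50 or more unique molecular identifiers (UMIs, tags that mark single mRNA molecules) over all libraries and are called measured members below.

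A ribosome is built of a small subunit, which reads the mRNA, and a large subunit, which joins amino acids. Cells need most ribosomal proteins in equal numbers, and their mRNAs are among the most abundant of most cells. These mRNAs belong to the TOP class: they start with a C followed by an unbroken stretch of pyrimidines (C or T), through which the kinase mTOR and the binding protein Larp1 control their translation and stability. Resting and activated lymphocytes differ in how strongly TOP mRNAs are translated, so mRNA levels alone do not give the rate of protein synthesis.

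All cells came from male B6 mice aged 20 months, with no treatment named in the labels. Cells of both tissues were sorted as DAPI- TCRb+ CD4+ CD25+, a gate that enriches regulatory T cells (Tregs), and single cells were captured by inDrops, in which droplets hold primers for the poly(A) tail. One library of spleen (375 cells) and 2 libraries of epididymal VAT, numbered 2 and 3 in the labels (330 and 314 cells), were deposited. Spleens were dissociated mechanically, whereas VAT was digested with collagenase and dispase, so tissue and dissociation cannot be told apart in any value here. The labels of the spleen cells named the source as spleen but the tissue as spleen together with visceral adipose, and gave differing replicate names. Source set the group. No animal was named, so each library counted as 1 sample, and no test between tissues was run. The ratios of both VAT libraries have the same spleen library below the line and share its error. The 95% intervals given are exact, but they take in counting error alone and are too narrow because the UMIs of a gene clump in cells.

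The libraries held 573622, 556099 and 548770 UMIs in the order spleen, VAT library 2, VAT library 3, with medians of 1423, 1565 and 1611 UMIs per cell. Barcodes shared between libraries numbered 0 to 2 per pair. T cell markers (6 rows) held 1844, 1227 and 1021 UMIs and Treg markers (8 rows) 1408, 2534 and 2132, and Foxp3 had a UMI in 130, 128 and 98 cells. Markers of other cells made up few UMIs but were not evenly spread: 237 of 375 spleen cells held no UMI of the B cell, myeloid and erythroid lists, against 310 of 330 and 278 of 314 VAT cells. B cell markers had UMIs for 6 of 10 rows, with 93, 17 and 37 UMIs in all, and Cd79a, Pax5 and Ebf1 were among those at 0. Most were of Cd74 (60, 8 and 14), H2-Aa (16, 1 and 0) and H2-Ab1 (10, 2 and 0). H2-Eb1 went the other way, with 6, 6 and 22. Cd79b and Ms4a1 had 1 UMI each. Erythroid markers held 116 UMIs in spleen and 1 in each VAT library, mostly Hba-a2 (73, 0 and 0). Myeloid markers held 10, 9 and 14 UMIs, CD8 and NK markers 38, 40 and 38, stromal and endothelial markers 30, 1 and 4, and adipocyte markers 12, 10 and 11, with Adipoq and Plin1 at 0.

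The TOP motif that defines this mRNA class was looked for at the annotated gene starts. The windows below run from 25 bases before to 25 bases after the start and show the member of highest level (Rps18), the mTOR target Rps6, 2 members far below and 1 close to their spleen level (Rpl28, Rps15a, Rpl14), a stalk protein (Rplp2) and the paralogs Rps27 and Rps27l. Capitals mark the longest run of C and T that begins within 10 bases of the start.
Rps18: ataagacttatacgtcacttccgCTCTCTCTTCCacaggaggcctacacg
Rps6: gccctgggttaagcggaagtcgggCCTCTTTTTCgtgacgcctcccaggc
Rpl28: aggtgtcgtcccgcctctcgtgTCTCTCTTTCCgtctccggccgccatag
Rps15a: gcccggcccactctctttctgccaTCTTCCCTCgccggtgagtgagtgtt
Rplp2: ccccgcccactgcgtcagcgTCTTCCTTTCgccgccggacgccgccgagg
Rpl14: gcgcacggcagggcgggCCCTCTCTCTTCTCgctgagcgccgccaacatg
Rps27: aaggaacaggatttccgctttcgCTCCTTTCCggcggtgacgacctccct
Rps27l: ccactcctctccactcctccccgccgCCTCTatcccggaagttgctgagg
In RefSeq coordinates of GRCm38.p6 the windows are Rps18 chr17:33955641-33955690 on the minus strand, Rps6 chr4:86857343-86857392 on the minus strand, Rpl28 chr7:4792940-4792989 on the plus strand, Rps15a chr7:118116123-118116172 on the minus strand, Rplp2 chr7:141447626-141447675 on the plus strand, Rpl14 chr9:120571492-120571541 on the plus strand, Rps27 chr3:90213624-90213673 on the minus strand and Rps27l chr9:66946061-66946110 on the plus strand. Of these 8 windows only that of Rps27l lacks a C at the first transcribed base with 4 or more C or T behind it. The windows shown are not typical, since this motif stood at only 12 of the 63 member starts read.

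The RefSeq promoter table held 63 of the 84 members, taken at the most upstream start of each gene and read on the gene's own strand. A C at the first base followed by at least 4 bases that are each C or T stood at 12 of these 63 starts (19.0%), against 658 of 26961 other genes (2.44%). Runs of 8 or more C or T beginning within 10 bases of the start were present at 20 members (31.7%) and at 9.12% of the other genes. A start annotated a few bases away hides the motif, so these shares describe the annotation and are not counts of TOP mRNAs. Among measured members the median log2 ratio of VAT to spleen was -0.82 and -0.57 for the 12 with the motif and -0.75 and -0.64 for the 47 without it, so the order of these groups differed between the VAT libraries.

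Ribosomal protein mRNA made up a smaller share of all UMIs in VAT than in spleen. The members held 172442 of the spleen UMIs, a share of 30.1% (interval 29.9 to 30.2). They held 98495 UMIs or 17.7% (17.6 to 17.8) in VAT library 2 and 107974 UMIs or 19.7% (19.6 to 19.8) in VAT library 3. The share was 1.70-fold lower (1.68 to 1.71) in VAT library 2 and 1.53-fold lower (1.52 to 1.54) in VAT library 3, a gap of 12.4 and 10.4 percentage points. The VAT libraries lay closer to each other than either lay to spleen. With 1 spleen library, how far spleen libraries differ among themselves is not known.

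The same order held cell by cell. The share in a spleen cell ran from 14.2% to 45.6% with a median of 29.0%. In VAT it ran from 8.53% to 35.0% with a median of 17.5% (library 2) and from 6.60% to 38.6% with a median of 19.0% (library 3). The upper quartile of both VAT libraries (20.0% and 22.2%) lay below the lower quartile of spleen (24.2%), although the extremes overlapped. A share above 25% was present in 270 spleen cells (72.0%), in 17 cells of VAT library 2 (5.15%) and in 31 of VAT library 3 (9.87%). A share under 15% was present in 3 (0.800%), 97 (29.4%) and 44 cells (14%). Counted as molecules, the median cell held 427 ribosomal protein UMIs in spleen and 273 and 304 in VAT, beside 993, 1295.5 and 1304 UMIs of all other genes. The VAT medians were thus 0.639 and 0.712 of the spleen median for ribosomal protein UMIs, and 1.3 and 1.31 of it for the others.

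**Figure D1:**
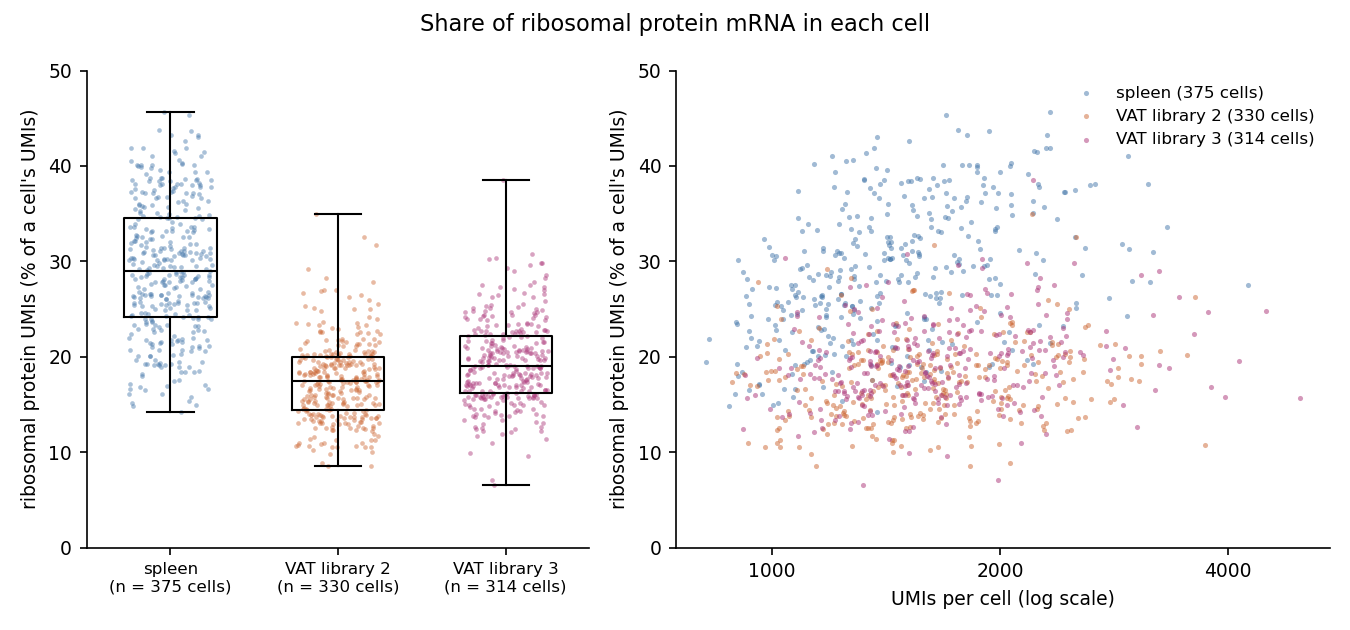
Share of ribosomal protein UMIs in each cell, by library (left; boxes give quartiles and median, whiskers the full range) and against the UMIs of the cell on a log axis (right). Each point is 1 cell. Medians were 29.0% in spleen and 17.5% and 19.0% in VAT, and the spleen cells lay above most VAT cells at like UMIs per cell.

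Because a share depends on what else is counted, the totals were also changed. The 484 genes that reached 2-fold higher in each VAT library were left out of the totals. Without them the share was 31% in spleen and 22.9% in VAT (mean of both libraries, against 18.7% with them). These genes were picked from the same ratios, and genes lower in VAT were kept. Leaving them out therefore had to raise the VAT share by the larger factor. Leaving out only the immediate early genes of the AP-1 list, which held 0.182% of spleen and 3.06% and 2.81% of VAT UMIs, gave 30.1% in spleen and 19.3% as the VAT mean. Without the cells that held a UMI of a B cell, myeloid or erythroid marker, 237, 310 and 278 cells remained and the shares were 30.6%, 17.7% and 19.6%. In cells with a Foxp3 UMI they were 29.4%, 16.9% and 19.5%. Mapped reads per UMI, which tell how deeply each molecule was sequenced, had medians of 16.9, 14.7 and 17.6. Their part in the difference was not tested.

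Cells of 1 library differed far more in this share than counting allows. The SD over cells was 6.93 percentage points in spleen, 4.17 in VAT library 2 and 4.41 in VAT library 3, against 1.22, 0.972 and 0.995 from binomial counting at each cell's depth. With every cell thinned to 800 UMIs the SDs were 6.95, 4.24 and 4.53. Spleen cells with more UMIs tended to have higher shares (Pearson r 0.36, Spearman rho 0.43 over 375 cells), less so in VAT (r 0.15 and 0.20, rho 0.15 and 0.23 over 330 and 314 cells). These correlations are descriptions over cells of 1 library, in which share and UMIs have the cell's counts in common. Large- and small-subunit mRNA varied together: per UMI of other genes their Pearson r over cells was 0.92, 0.86 and 0.87. Both measures share a denominator and the cell's depth.

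Each member was measured as CPM, its UMIs scaled to a library total of 1000000, a count of molecules from the 3' end in which gene length does not enter. Of the 20 genes with the highest mean CPM over the libraries 10 were members, and of the top 100 genes 59 were. Among the 76 measured standard members the lowest was Rpl29 in every library, at 778, 505 and 600 CPM in the order of libraries used throughout. The median member stood at 3553, 2130 and 2327 CPM. Rps18 was highest in spleen (10978 CPM), Rps24 in VAT library 2 (5425 CPM) and Rplp1 in VAT library 3 (5959 CPM). The range from lowest to highest was 14.1-fold in spleen and 10.7-fold and 9.94-fold in VAT, although most of the proteins are assembled in equal numbers. The order of members was much alike between libraries: over the 79 measured members Pearson's r of log10 CPM was 0.97 between spleen and each VAT library and 0.99 between the VAT libraries, as a description over genes that share their libraries.

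**Figure D2:**
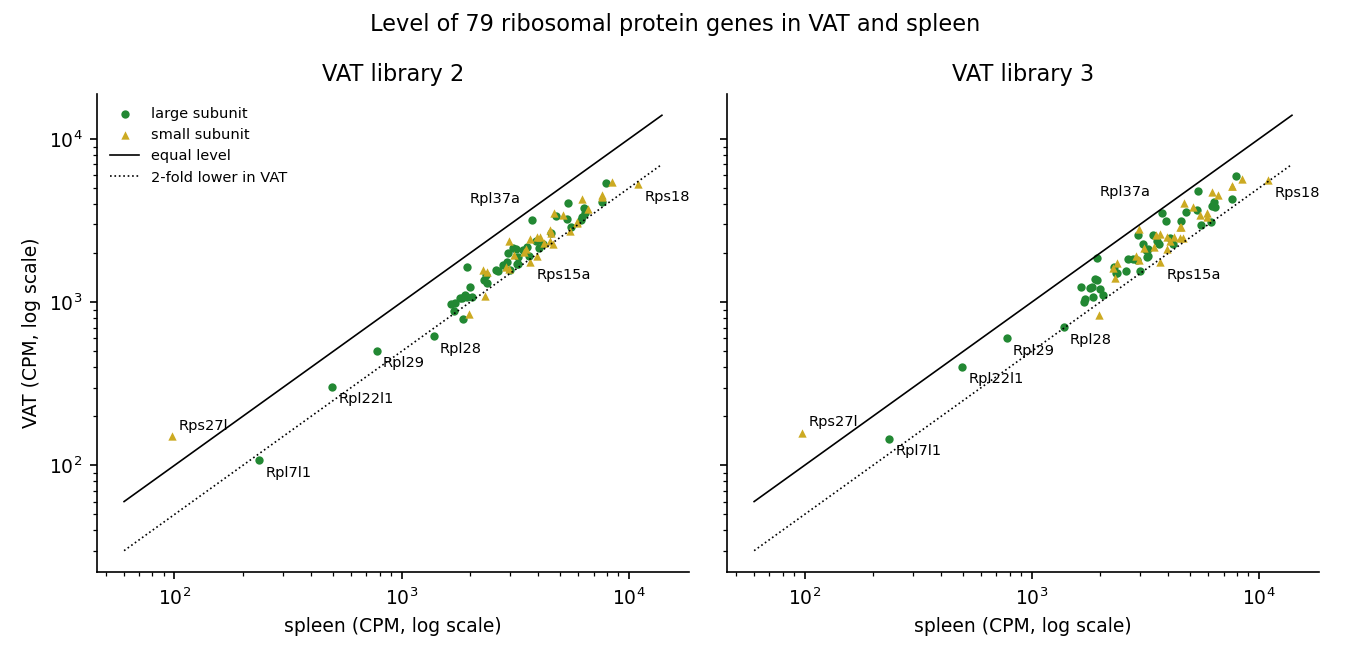
Level of the 79 measured members in VAT library 2 (left) and 3 (right) against spleen, in CPM on log axes. Points are genes, circles of the large and triangles of the small subunit. All but Rps27l lie below the line of equal level, and most lie between it and the line of 2-fold lower.

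Of the 79 measured members, 78 were below their spleen level in both VAT libraries, whereas 40.6% of the 4635 genes with 50 or more UMIs were. Only Rps27l was above it in both, beside 41.3% of all these genes. The median log2 ratio of VAT to spleen was -0.77 and -0.63 for the members, 0.04 and -0.02 for all genes. Levels 1.5-fold lower or more in both were reached by 44 members, against 13.1% of all genes, and 1 member was at least 1.5-fold higher, against 18.3%. The differences were small in size: only 2 members, among them Rps15a, were at least 2-fold lower in both, against 4.47% of all genes, and 0 were at least 2-fold higher, against 10.4%. Scaled to UMIs outside the members, the genes 2-fold apart in both numbered 346 lower and 392 higher, against 207 and 484 with all UMIs. The members then had medians of -1.0 and -0.83, still with 78 below, and 14 were 2-fold lower. Scaled to the UMIs of the members alone, 33 were below and 29 above spleen in both. The whole counting interval lay below the spleen level in both VAT libraries for 75 members, and the exceptions were Rpl14, Rpl37a, Rps12 and Rps27l.

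With all UMIs as the total, other abundant genes were not lower as a group. The 191 other genes with a mean of 500 CPM or more had medians of 0.28 and 0.23, with 59 below and 118 above spleen in both libraries. All 76 members in that range were below it. These totals include the members, so the lower member share in VAT raises the ratios of all other genes. Scaled to UMIs outside the members, the median of all measured genes outside the members went from 0.04 and -0.01 to -0.19 and -0.21. The 191 genes were not rescaled. The subunits had like medians: the log2 ratio was -0.77 and -0.62 for 47 large-subunit members and -0.77 and -0.64 for 32 small-subunit members. Large-subunit genes held 52.0% of ribosomal protein UMIs in spleen (interval 51.7 to 52.2), 52.5% in VAT library 2 (52.2 to 52.8) and 52.8% in VAT library 3 (52.5 to 53.1). The 72 members higher in VAT library 3 than in VAT library 2 far outnumbered the 7 that were lower, with a median ratio of 1.11 between the libraries and a range from 0.947 (Rpsa) to 1.36 (Rpl37). For 71 of the 79 the gap between the VAT libraries, on the log2 scale, was smaller than the distance of either from spleen. VAT library 3 set how many members passed 2-fold in both. Without it 10 passed and without VAT library 2 still 2, because 8 members reached 2-fold in VAT library 2 only. Those members were Rpl28, Rpl37, Rpl7l1, Rps16, Rps18, Rps26, Rps27a and Rps3a1. The share of all genes that pass in a single VAT library was not counted, so the 10 have no background to be read against.

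**Figure D3:**
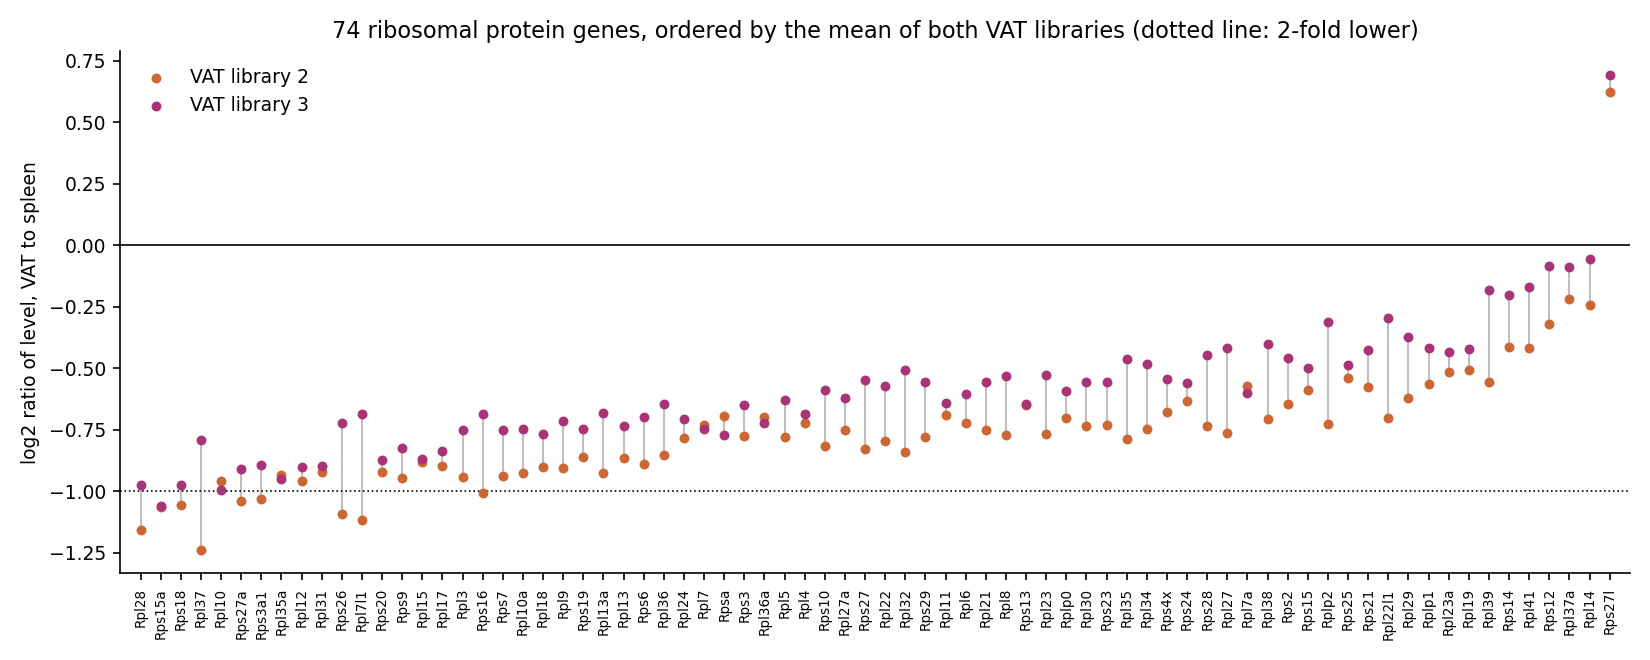
log2 ratio of level in VAT to spleen for 74 of the 79 measured members, ordered by the mean of both VAT libraries, with 1 point per library. Values run from Rpl28 at the left to Rps27l at the right, the 1 member above 0 in both.

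The 27 small-subunit members described by name here, leaving aside Rps27l, were lower in VAT by 1.06-fold to 2.13-fold. Rps18, a protein of the subunit's head, was the most abundant member with 10978 CPM in spleen, 5280 in VAT library 2 and 5583 in VAT library 3. It was 2.08-fold (interval 1.99 to 2.17) and 1.97-fold (1.88 to 2.05) lower, so the 2-fold mark lay inside both intervals. Rps15a had 3682, 1760 and 1766 CPM and was 2.09-fold lower in both libraries (1.94 to 2.26 and 1.93 to 2.25). Its VAT values lay close together and far under spleen. Rps27a, made as a fusion with ubiquitin, stood at 3963, 1928 and 2107 CPM, 2.06-fold and 1.88-fold lower. Rps3a1, the mouse gene of Rps3a, stood at 4622, 2262 and 2484 CPM, 2.04-fold and 1.86-fold lower.

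Other abundant small-subunit members differed less. Rps24, at 8410, 5425 and 5709 CPM, was 1.55-fold (1.48 to 1.62) and 1.47-fold (1.41 to 1.54) lower. Rps23, which sits at the decoding centre, had 7596, 4575 and 5172 CPM and Rps29, a zinc-binding protein, had 7601, 4433 and 5173 CPM. Both were 1.47-fold lower in VAT library 3, after 1.66-fold and 1.71-fold in VAT library 2. Rps6, the substrate of the mTOR-driven S6 kinases, had 2969, 1602 and 1828 CPM and was 1.85-fold (1.71 to 2.01) and 1.62-fold (1.5 to 1.76) lower. Rpsa, also known as a laminin receptor, had 4053, 2505 and 2373 CPM and was 1.62-fold and 1.71-fold lower. It was one of the 7 members lower in VAT library 3 than in VAT library 2.

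Rps12 and Rps14 stood at the other end. Rps12 had 2971, 2379 and 2799 CPM and was 1.2-fold (1.16 to 1.34) and 1.06-fold (0.990 to 1.14) lower, an interval that in VAT library 3 includes no difference. Rps14, whose loss in bone marrow impairs red cell formation, had 4676, 3508 and 4064 CPM and was 1.33-fold and 1.15-fold lower. In all, 18 of 32 measured small-subunit members were at least 1.5-fold lower in both. Besides those named they included Rps3, Rps7, Rps9, Rps10, Rps13, Rps16, Rps19, Rps20 and Rps26. The 13 others below spleen, which add Rps2, Rps4x, Rps15, Rps21, Rps25, Rps27 and Rps28 to Rps12, Rps14, Rps23, Rps24 and Rps29, were lower by 1.06-fold to 1.77-fold.

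Large-subunit members were lower by 1.04-fold to 2.36-fold, and 26 of 47 measured reached 1.5-fold lower in both. Rpl17, near the exit of the nascent protein, was second to Rplp1 among them by mean CPM, with 7648, 4100 and 4277 CPM, 1.87-fold (1.77 to 1.96) and 1.79-fold (1.70 to 1.88) lower. Rpl10, which is added late and allows the subunits to join, had 6178, 3174 and 3100 CPM and was 1.95-fold (1.84 to 2.06) and 1.99-fold (1.88 to 2.11) lower. Rpl27a had 6360, 3775 and 4129 CPM, 1.68-fold and 1.54-fold lower. Rpl28 was low in all libraries, with 1384, 620 and 703 CPM, and among the furthest from spleen at 2.23-fold (1.96 to 2.54) and 1.97-fold (1.74 to 2.23) lower. Rpl37 had 1855, 786 and 1071 CPM, 2.36-fold (2.11 to 2.64) lower in VAT library 2 and 1.73-fold (1.56 to 1.92) in VAT library 3, and was named after its values were seen. Its gap between the VAT libraries was the widest of the measured members.

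Some large-subunit members were almost as high in VAT as in spleen. Rpl37a had 3739, 3213 and 3521 CPM, 1.16-fold (1.09 to 1.24) and 1.06-fold (0.998 to 1.13) lower. Rpl14 had 1947, 1647 and 1873 CPM, 1.18-fold (1.08 to 1.29) and 1.04-fold (0.954 to 1.13) lower. For both, the interval in VAT library 3 includes no difference. Rpl41, one of the shortest proteins of the cell, had 5418, 4051 and 4813 CPM and was 1.34-fold (1.27 to 1.41) and 1.13-fold (1.07 to 1.19) lower. Large-subunit members at least 1.5-fold lower in both that are not described singly included Rpl4, Rpl5, Rpl6, Rpl9, Rpl10a, Rpl11, Rpl12, Rpl13, Rpl13a, Rpl15, Rpl18, Rpl24, Rpl31, Rpl35a, Rpl36 and Rpl36a. Those that did not reach it in both were Rpl7a, Rpl8, Rpl19, Rpl21, Rpl23, Rpl23a, Rpl27, Rpl29, Rpl30, Rpl32, Rpl34, Rpl35 and Rpl38.

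The stalk, a flexible arm that recruits elongation factors, is formed by Rplp0 with Rplp1 and Rplp2. Rplp1, the most abundant large-subunit member, had 7962, 5389 and 5959 CPM, 1.48-fold (1.41 to 1.55) and 1.34-fold (1.28 to 1.40) lower. Rplp0, the base, had 3563, 2188 and 2365 CPM, 1.63-fold (1.52 to 1.75) and 1.51-fold (1.40 to 1.62) lower. Rplp2 had 3902, 2357 and 3147 CPM and was 1.65-fold (1.55 to 1.77) lower in VAT library 2 but 1.24-fold (1.16 to 1.32) in VAT library 3, intervals that do not overlap. The mRNA of Rplp1 exceeded that of its partner Rplp2 in every library.

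Paralogs were far below their partners. Rps27l, a paralog of Rps27 that p53 induces, had 56, 84 and 87 UMIs, which is 97.6, 151 and 159 CPM. It was 1.55-fold (1.09 to 2.21) and 1.62-fold (1.15 to 2.31) higher, whereas Rps27 had 6605, 3722 and 4519 CPM and was 1.77-fold (1.68 to 1.87) and 1.46-fold (1.39 to 1.54) lower. With totals taken outside the members Rps27l was 1.32-fold and 1.41-fold higher, so it no longer reached 1.5-fold. It also missed it when the 5% of cells highest in UMIs were left out, in cells with a Foxp3 UMI, and with cells thinned to 800 UMIs. Rpl22l1 had 284, 169 and 221 UMIs and was 1.63-fold (1.34 to 1.98) and 1.23-fold (1.03 to 1.47) lower. Its partner Rpl22, needed for the development of alpha-beta T cells, had 1850, 1066 and 1245 CPM and was 1.73-fold (1.57 to 1.92) and 1.49-fold (1.35 to 1.64) lower, so both genes of that pair were on the same side. Rpl7l1 had 135, 60 and 80 UMIs, 2.18-fold (1.6 to 3.01) and 1.61-fold (1.22 to 2.16) lower, beside Rpl7 with 1500, 875 and 854 UMIs, 1.66-fold and 1.68-fold lower.

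The 5 members that were not measured account for the rest of the list. Rpl10l and Rpl39l, known from the testis, had 12, 4 and 8 and 5, 2 and 1 UMIs. Rps4l had 1 UMI in VAT library 3, and Rpl3l, known from muscle, had none in any library, which allows up to 5.23, 5.39 and 5.47 CPM. Their partners were abundant in every library: Rpl39, in the exit tunnel, had 2943, 2001 and 2597 CPM, Rps4x 3136, 1958 and 2154 CPM, and Rpl3, at the peptidyl transferase centre, 1693, 879 and 1004 CPM. Rpl26 is a standard member of the large subunit, yet its counts were 3, 0 and 0 UMIs. Of the 31-base words in its last 300 bases, 74.1% occur in the annotated copy Gm15772, itself a row at 0, and 54.4% in Gm10136. The part of such copies in the low count was not tested.

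Within the ribosomal protein pool the makeup differed little. Of the 79 measured members, 33 had a lower share of the pool in both VAT libraries than in spleen, 29 a higher share and 17 lay on opposite sides. At a mark of 1.25-fold, chosen after the values were seen, 2 were lower in both, among them Rpl28, and 6 higher in both (Rpl14, Rpl37a, Rpl41, Rps12, Rps14 and Rps27l). Rps18 made up 3.65% of the pool in spleen and 2.98% and 2.84% in VAT and Rpl28 0.460%, 0.350% and 0.357%. Rpl37a made up 1.24%, 1.81% and 1.79%, Rpl14 0.648%, 0.930% and 0.952%, and Rpl41 1.80%, 2.29% and 2.45%. In each of these the VAT libraries were nearer to each other than to spleen. The 5 most abundant members held 14.2% of the pool in spleen and 14.2% and 14% in VAT.

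**Figure D4:**
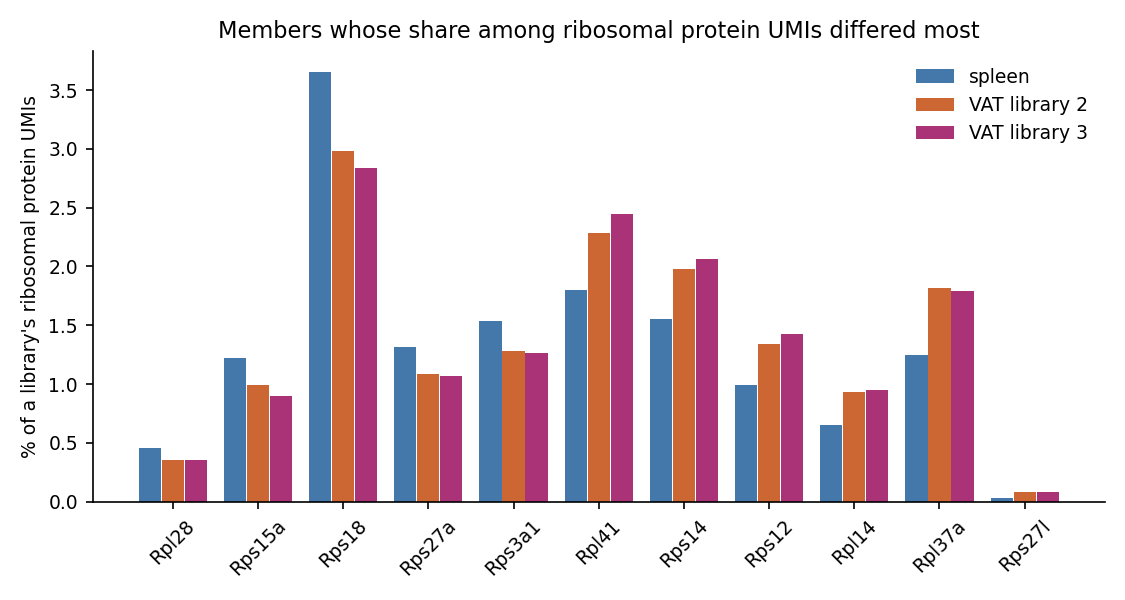
Share of each library's ribosomal protein UMIs held by 5 members with a large decrease and the 6 with the largest increase common to both VAT libraries. Bars start at 0 and stand for 1 library each. Rpl37a stands at 1.24% in spleen against 1.81% and 1.79% in VAT, and Rps18 at 3.65% against 2.98% and 2.84%.

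Nearly every cell held most of the set. The median cell had a UMI of 74 members in spleen and 69 and 70 in VAT, or 67, 57 and 59 after thinning to 800 UMIs, a depth that every cell reached. Thinned, the median member was found in 88.3% of spleen cells and 76.4% and 78.3% of VAT cells (95.7%, 90.6% and 92.4% before). Rplp1 was found most often, in 98.9%, 98.8% and 98.4% of cells. Rpl28 was found in 61.3%, 32.4% and 38.9% and Rps27l in 7.47%, 10% and 11.5%. All cell types make ribosomal proteins, so no type gives a background share for free RNA. The variance of thinned counts over cells was a median of 1.40, 1.27 and 1.29 times their mean, and was largest for Rps18 at 2.5, 2.36 and 2.58 times, where independent counting gives a ratio near 1.

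The share was also set beside other features of the same cells, as descriptions. Per cell the share went with the summed UMIs of the other TOP mRNAs (Pearson r 0.60, 0.39 and 0.47 in spleen and the VAT libraries). It went against those of the VAT Treg list (-0.36, -0.27 and -0.31) and of the AP-1 list (-0.25, -0.37 and -0.31), with each list taken out of the total. Its r was small for the biogenesis list (-0.01, 0.03 and 0.10) and for the mitochondrial ribosomal proteins (-0.12, 0.08 and -0.03). For the lymphoid homing list r was 0.27, 0.04 and 0.09. Biogenesis genes held 4358, 3017 and 2901 CPM and mitochondrial ribosomal proteins 3917, 3044 and 3378, against 45384, 38099 and 39758 for the other TOP mRNAs. Low counts weaken r, so lists of unlike level cannot be compared by it. Cells were thinned for the r values and numbered 375, 330 and 314. The list and the members compete for the same 800 UMIs. Klrg1, a receptor of differentiated Tregs, had a UMI after thinning in 10 spleen cells, whose median share was 22.3% against 29.1% in the 365 others. In VAT the medians were 17.3% with (253 cells) and 18.4% without (77 cells) in library 2, and 18.8% (251) and 19.1% (63) in library 3. VAT cells without a Klrg1 UMI had medians under those of spleen cells. At 800 UMIs, however, a cell that holds Klrg1 mRNA can lack its UMI. A part of Klrg1 in the share was not tested.

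Genes that share the TOP class or serve the ribosome were lower in VAT as well, by smaller medians. Of 20 measured TOP mRNAs that are not members, 19 were below spleen in both VAT libraries, 8 were at least 1.5-fold lower and 0 were 2-fold lower, with medians of -0.58 and -0.44. The shares of all measured genes under these 3 rules were 40.6%, 13.1% and 4.47%. Tpt1, a translationally controlled protein, had 13129, 10678 and 11263 CPM and was 1.23-fold and 1.17-fold lower. Eef1a1, the elongation factor that brings tRNA, had 8608, 6567 and 6802 CPM, 1.31-fold and 1.27-fold lower. Gnb2l1, the row of the small-subunit scaffold Rack1, had 4315, 2352 and 2447 CPM and was 1.83-fold and 1.76-fold lower. Fau, which encodes a small-subunit protein, had 3508, 2384 and 2721 CPM and was 1.47-fold and 1.29-fold lower. Vim, the intermediate filament vimentin, was the exception with 476, 6181 and 6092 CPM, 13.0-fold and 12.8-fold higher.

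Of 25 measured genes of ribosome biogenesis, 22 were below spleen in both libraries and 8 at least 1.5-fold lower, with medians of -0.66 and -0.44. The shares of all measured genes were 40.6% and 13.1%. The nucleolar proteins Npm1 (615, 343 and 265 UMIs) and Ncl (437, 344 and 281 UMIs) led the list in level, and Npm1 was 1.74-fold and 2.22-fold lower. Polr1d, a subunit of RNA polymerases I and III, was the 1 gene above spleen in both, at 130, 147 and 155 UMIs. Of 6 measured regulators of the mTOR and Myc pathways, 2 were at least 2-fold higher in both, against 10.4% of all measured genes. A list of 6 genes is too short to weigh against that share. The 2 were Myc and Eif4ebp1. Myc, a driver of ribosome synthesis, had 22, 77 and 65 UMIs. Eif4ebp1, a translation inhibitor that mTOR switches off, had 13, 27 and 38 UMIs. Larp1, which binds TOP mRNAs, had 73, 50 and 44 UMIs and was 1.42-fold and 1.59-fold lower. Proteins of the mitochondrial ribosome lay closer to all genes, with medians of -0.25 and -0.18. Of 44 measured, 22 were below and 12 above spleen in both, against 40.6% and 41.3% of all measured genes. Mrpl52, Mrps16 and Mrps6 were 2-fold lower in both, each with at most 91 UMIs in a library. This count of 3 of 44 lies near the 4.47% of all measured genes that passed the same rule.

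**Figure D5:**
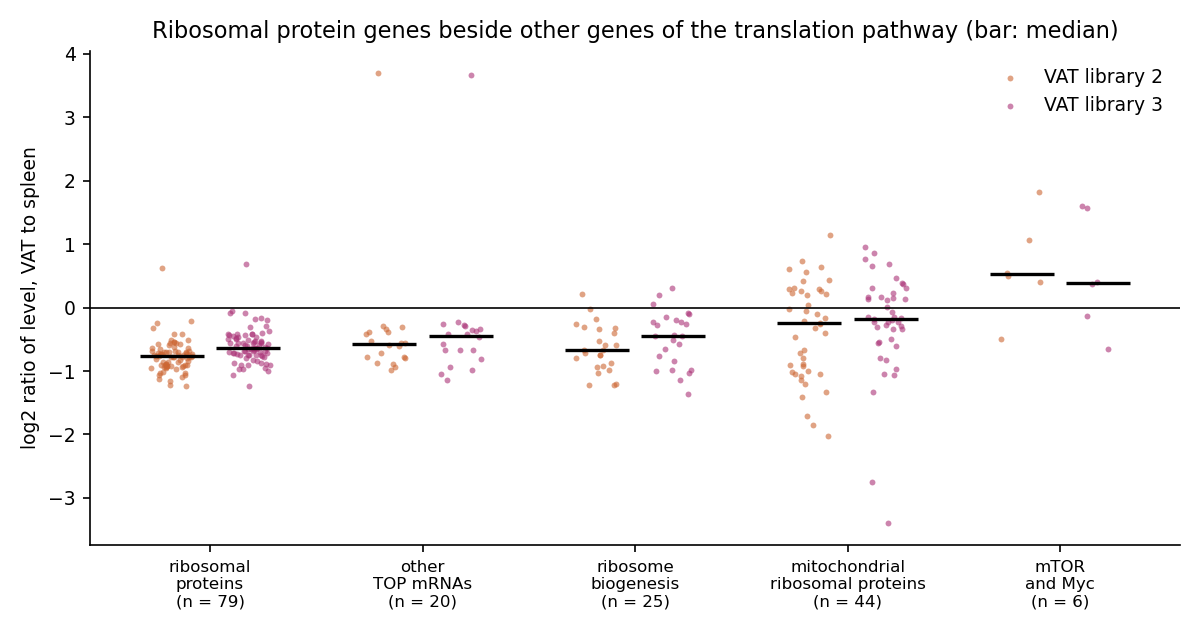
log2 ratio of level in VAT to spleen of the measured ribosomal protein genes and of 4 lists of the same pathway, with 1 point per gene and library and bars at the medians. The members sit in a narrow band with medians of -0.77 and -0.63, and the point near 3.7 in the TOP list is Vim.

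Counts of these genes can be shared with processed copies elsewhere in the genome. Of 83 members with a coding transcript, 36 have at least 50% of the 31-base words of their last 300 bases in another annotated gene, among them Rps18, and how reads matching several places were counted was not given in the sources used here. Of 145 such near copies 3 were rows of the table. Rows marked -ps also had UMIs. They were matched to members by name alone, and none was a near copy by the 50% rule. Rps15a-ps6 (1295, 533 and 607 UMIs) and Rps15a-ps4 (342, 99 and 148) carry the name of Rps15a. Adding both to Rps15a gave 2.26-fold and 2.08-fold lower in place of 2.09-fold in both. Rps26 with its copy row Gm6654 was 2.11-fold and 1.63-fold lower, Rps19 with Rps19-ps3 1.85-fold and 1.67-fold, and Rpl31 with Rpl31-ps12 1.89-fold and 1.90-fold. Rpl22l1 with Gm15421 was 1.58-fold and 1.27-fold lower. In all 5 sums the VAT libraries stayed below spleen.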

How the data were processed

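The values are raw UMI counts, deposited by the authors as genes in rows and cells in columns, without normalization. TopHat2, SAMtools and the mouse build mm10 are named in the submitters' processing notes, without versions. The sources used here do not say which annotation, strand setting or cell filter was used, nor how doublets were handled. All 1019 cells were kept and doublets were not called. One alternative drops the 5% of cells highest in UMIs.

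Each library's cells were added up, and levels are CPM (UMIs scaled to a total of 1000000). A gene was measured with 50 or more UMIs over the 3 libraries (4635 genes). log2 ratios add 0.5 to each count, and folds add nothing. Intervals of shares are exact Clopper-Pearson 95% intervals, and those of ratios are conditional binomial ones. They cover counting error only. With 1 spleen library and no animals named, genes were called by size (2-fold or 1.5-fold in both VAT libraries), with no test and no p-value. Cells were thinned to 800 UMIs without replacement. The size calls were run on simulated library totals with known folds and counting error alone, which cannot show how far libraries differ.

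The members, the gene lists and the rules were chosen with earlier results of these data known. Named members were the 10 with the highest mean CPM, those 2-fold apart or above spleen in both VAT libraries, the 6 lowest and 6 highest within the member pool, measured genes of paralog pairs, the stalk, Rpsa, Rps6 and members with no UMI. Of other lists, up to 4 genes with the most UMIs and those 2-fold apart in both were eligible for naming. Larp1, Polr1d, Fau, Rpl37 and other genes outside this rule were named after their values were seen. All 84 symbols were found in the GENCODE M21 annotation. Start windows come from RefSeq's promoter table (250 bases before to 50 after each start). Protein sequences were not used here. A few genes, 5 of them measured members, are not reported here by name but stay in all totals and counts. Python 3.11.15, numpy 2.4.6, pandas 2.3.3, scipy 1.17.1 and matplotlib 3.10.9 were used.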

Additional observations from a re-analysis of the deposited data

How the results depend on the processing

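Of 96 recomputed values of 11 results, 70 stayed within set limits, 26 moved and 0 reversed. The limit was the counting interval for spleen shares, the sampling error of the SD for the spleen spread, and 1.5 times the count for counts of members. For VAT shares, the VAT spread and the median log2 ratio it was the SD between the VAT libraries. Leaving out 1 VAT library cannot move a VAT mean past that SD, so those values were bound to stay. The spleen share of 30.1% was 29.3% as a mean and 29.0% as a median over cells, 29.1% with cells thinned to 800 UMIs, 29.4% in cells with a Foxp3 UMI, 29.9% without the 5% of cells with the most UMIs, 30.6% with -ps rows added, and also 30.6% without cells that held a B cell, myeloid or erythroid marker UMI. It was 31% without the 484 VAT-high genes in the total and 25.8% without the 5 most abundant members. The mean VAT share of 18.7% was 22.9% and 16.1% under those last changes. Large-subunit genes held 52.4% of the spleen pool in cells with a Foxp3 UMI. Members at least 2-fold lower numbered 2, and 4 without the cells with the most UMIs, 4 without the marker cells, 14 scaled to UMIs outside the members and 0 scaled to the members alone. The 44 members at least 1.5-fold lower became 69 and 0 under these scalings, and the median log2 ratio of -0.70 became -0.92 and -0.013. Scaled to the members alone, 1 member was at least 2-fold higher, and this scaling by its construction takes away a difference common to all. The 1 member at least 1.5-fold higher (Rps27l) became 0 without the cells with the most UMIs, in cells with a Foxp3 UMI, thinned, and scaled outside the members. The cause was not tested. Without either VAT library in turn, the VAT share ranged from 17.7% to 19.7%, its large-subunit share from 52.5% to 52.8%, the median log2 ratio from -0.77 to -0.63, members 2-fold lower from 2 to 10, members 1.5-fold lower from 45 to 65, members 2-fold higher stayed at 0 and members 1.5-fold higher at 1. The share of all genes that pass in a single VAT library was not counted, so these counts of members have no background. The spleen values (30.1% and 52.0%) do not use VAT. Leaving out the only spleen library gives no ratio. No paired analysis was possible because replicate numbers here mark libraries of unnamed animals, and 1 spleen library was analysed here.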
